A study of Mus musculus with 12 samples.

Results

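The 7 genes described here belong to the endothelial response to blood flow and were followed across mouse aortic valve RNA: Klf2, Klf4, Nos3, Thbd, Edn1, Piezo1 and Cav1. They were chosen by name, and all 7 were found by symbol among the 20620 genes of the deposited count table and passed the filter on low counts, as 19346 genes did. The 12 libraries came from aortic valves at postnatal day 10, 4 per genotype, and each library was a pool of 3 valves. The genotypes were wildtype, Notch1+/-;Gata5+/- (called double-heterozygous below) and Notch1+/-;Gata5-/- (called Gata5-null below), so both mutant groups carry the Notch1+/- label and no group carries a Gata5 genotype alone. The sources used here do not give strain, sex or how the alleles were made.

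Blood flow drags on the endothelial cells that line vessels and valves. Piezo1, a stretch-activated cation channel, is among the sensors of that force, and a kinase cascade through MEKK3, ERK5 and MEF2 factors switches on the zinc finger transcription factors KLF2 and KLF4 under steady laminar flow. These factors raise Nos3, the endothelial nitric oxide synthase, and Thbd, thrombomodulin, the surface receptor that turns thrombin towards anticoagulation, and they lower Edn1, the precursor of the vasoconstrictor endothelin-1. Cav1 encodes caveolin-1, the coat protein of caveolae, which binds and restrains the nitric oxide synthase and is also abundant in smooth muscle and fibroblasts. The comparisons asked whether levels of these genes differ with the Notch1 and Gata5 genotype.

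For sequence, Klf2 and Klf4 were picked as the transcription factors of the response, and Cav1 as the member with the smallest p. The stretches of 250 bases upstream of these 3 genes are shown. They are the RefSeq promoter sequences of GRCm38.p6, an older build than the GRCm39 alignment, printed 5′ to 3′ on the strand of the gene, with motif matches in capitals.
Klf2, chr8:72318812-72319061, plus strand: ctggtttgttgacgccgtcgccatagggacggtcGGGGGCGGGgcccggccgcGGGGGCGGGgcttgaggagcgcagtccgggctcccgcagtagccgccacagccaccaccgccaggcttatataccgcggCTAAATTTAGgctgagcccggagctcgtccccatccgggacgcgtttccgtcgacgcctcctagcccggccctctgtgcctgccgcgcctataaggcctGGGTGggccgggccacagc
Klf4, chr4:55532476-55532725, minus strand: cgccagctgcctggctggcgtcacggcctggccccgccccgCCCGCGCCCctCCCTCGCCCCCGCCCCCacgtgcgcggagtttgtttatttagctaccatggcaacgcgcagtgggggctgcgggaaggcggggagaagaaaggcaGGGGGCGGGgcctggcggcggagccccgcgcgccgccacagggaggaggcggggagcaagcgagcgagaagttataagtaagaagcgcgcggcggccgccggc
Cav1, first start, chr6:17306085-17306334, plus strand: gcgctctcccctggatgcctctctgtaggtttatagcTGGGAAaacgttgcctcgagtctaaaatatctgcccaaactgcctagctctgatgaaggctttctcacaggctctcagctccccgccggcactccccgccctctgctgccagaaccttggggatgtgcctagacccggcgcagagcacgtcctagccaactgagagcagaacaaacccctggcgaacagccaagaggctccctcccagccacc
Cav1, second start, chr6:17307390-17307639, plus strand: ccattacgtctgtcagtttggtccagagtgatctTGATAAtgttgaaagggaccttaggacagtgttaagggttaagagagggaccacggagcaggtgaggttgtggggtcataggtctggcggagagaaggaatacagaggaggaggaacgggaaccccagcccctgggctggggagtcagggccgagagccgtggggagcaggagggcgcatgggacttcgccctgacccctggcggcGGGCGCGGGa
The search covered both strands for the MEF2 motif (CTA and TAG with 4 free bases between them), the KLF motifs CACCC and GGGNGNGGG, the GATA motifs AGATAA and TGATAA, the RBPJ motif TGGGAA (RBPJ is the DNA-binding partner of Notch), the shear stress element GAGACC and the AP-1 motif TGANTCA. Klf2 held a MEF2 match, CTAAATTTAG, at position -118 from the transcript start, and 3.2% of 32851 promoter windows of 250 bases held that motif. Its other capitals are KLF matches, 2 to GGGNGNGGG and 1 to CACCC on the opposite strand, motifs found in 25.6% and 52.0% of windows. The capitals in Klf4 mark 5 matches to GGGNGNGGG on either strand, some of them overlapping. The first Cav1 window held an RBPJ match at -213, found in 21.6% of windows, and the second held the GATA match TGATAA at -216, found in 7.94%, and a GGGNGNGGG match at -10. The windows of Edn1 and Piezo1, not printed, held the shear stress element at -98 and -167, found in 13.7% of windows, and the windows printed held none. A match is a run of letters and not a measured binding site. RefSeq windows were at hand for 5 of the 7 genes, and those of Nos3 and Thbd were not used here.

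The total counts per library were 13866604 to 25059653. Gata5 had 0 counts in all 4 Gata5-null libraries, where a count of 0 allows up to 3 counts per library, against 1.77 ± 1.03 CPM (TMM-scaled counts relative to library size, SD, n = 4) in wildtype and 4.09 ± 2.27 CPM in double-heterozygous libraries. Notch1 was 128 ± 26.4, 172 ± 20.6 and 185 ± 29.5 CPM (SD, n = 4 each) in wildtype, double-heterozygous and Gata5-null libraries. The Notch1 mean was thus higher in both groups labelled Notch1+/- than in wildtype (log2 difference 0.42, SE 0.15, and 0.53, SE 0.15), with overlap and without passing the test. The allele's structure is not known here, so whether these counts can check the Notch1+/- label is unknown, and the mutant groups are named by their labels. Endothelial markers (14 of 14 with counts) summed to 989 to 1244 CPM in wildtype, 949 to 1377 in double-heterozygous and 1041 to 1352 in Gata5-null libraries, so the groups overlapped in endothelial RNA. The 12 cardiomyocyte markers summed to 23387 to 50454 CPM in wildtype and 28711 to 54468 CPM in double-heterozygous libraries. In Gata5-null libraries they summed to 37614 to 54042 CPM, and wildtype replicate 2 had the lowest sum of all. Gata5-null replicate 3 stood apart with 6000 genes at 0, against 3208 in wildtype replicate 2 and 1017 to 2908 in the other 10 libraries, and differences that moved by over 1.5 times without either are given with and without it in the account of each gene.

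None of the 7 genes passed the test in any of the 3 comparisons. The test was edgeR's quasi-likelihood F test with Benjamini-Hochberg adjustment over all 19346 genes, called at an adjusted p under 0.05. In Gata5-null against wildtype 0.0258% of all genes passed (5 genes), and in the other comparisons 0%, so the 0 of 7 stands beside a background near 0. At an unadjusted p under 0.05, 2 of 7 members passed in Gata5-null against wildtype (5.4% of all genes), 1 in double-heterozygous against wildtype (1.25%) and 1 in Gata5-null against double-heterozygous (3.18%). DESeq2 and limma-voom also called 0 of 7 in each comparison. The median log2 fold change of the 7 genes was -0.10, 0.02 and -0.07 in these comparisons, against -0.03, 0.00 and -0.04 over all genes tested. The comparisons share groups, so their values are not independent.

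**Figure D1:**
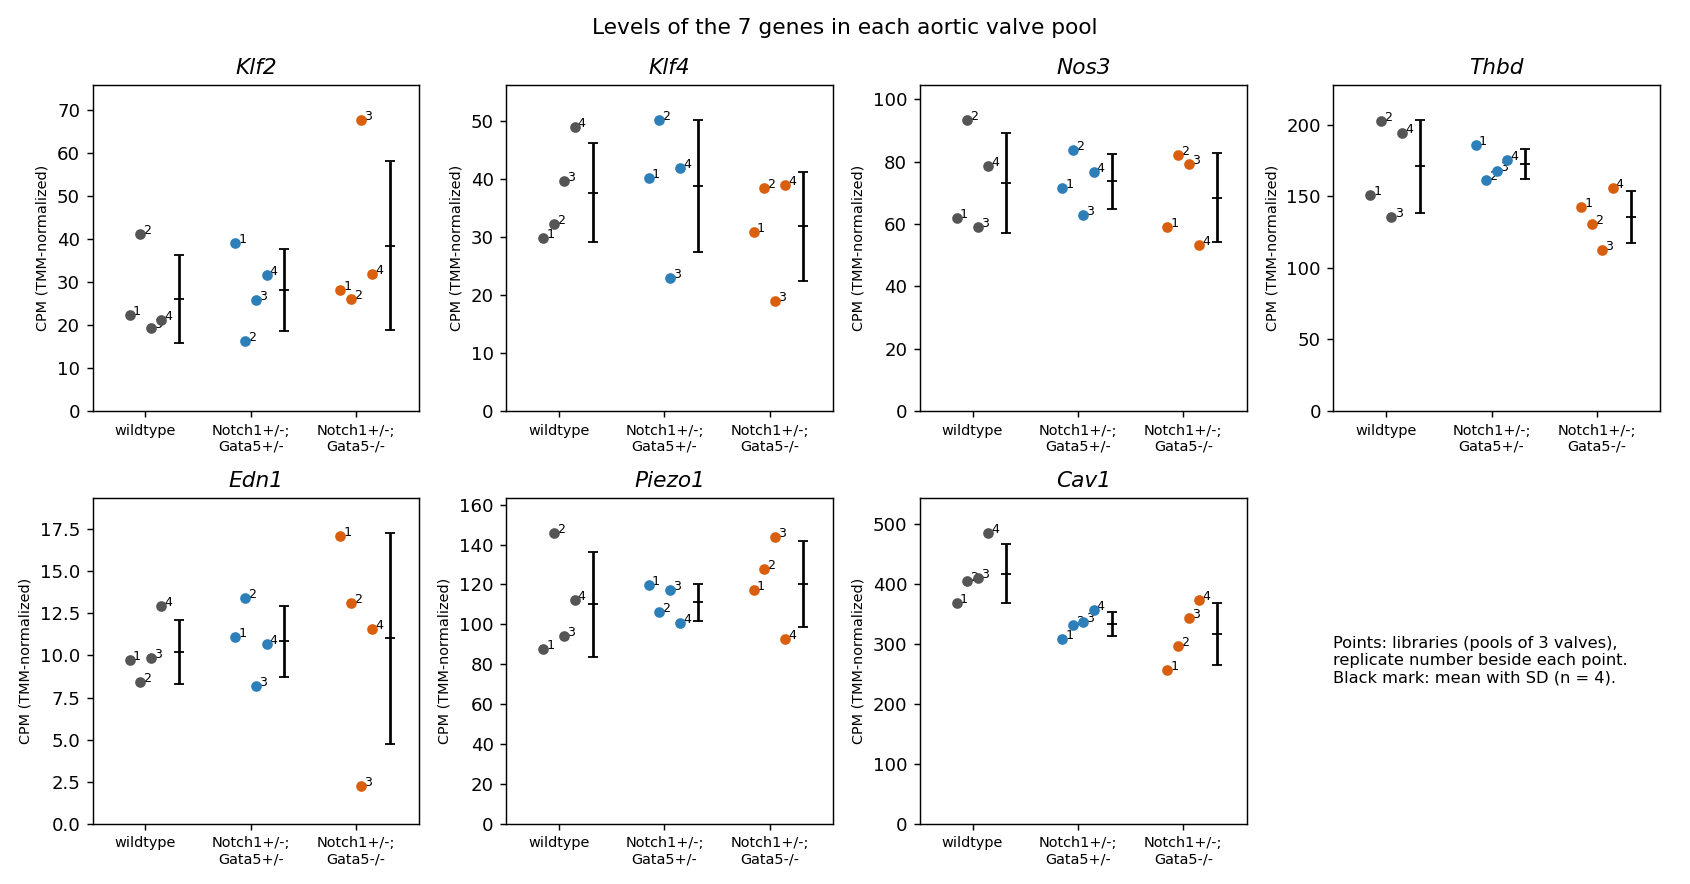
Level of each of the 7 genes in every library, in CPM on a linear axis, by genotype; points are pools of 3 valves labelled with the replicate number and bars are the mean and SD of 4. Cav1 is the highest at 255 to 485 CPM and Edn1 the lowest at 2.27 to 17.1 CPM, and the Klf2 point of Gata5-null replicate 3 lies at 67.6 CPM, above the other 11.

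Compared per kilobase of exon, so that genes of different length can be set side by side, Cav1 stood highest at a mean of 103 CPM per kb over the 12 libraries. Thbd followed at 42.9, Nos3 at 17.4, Klf2 at 16.7, Klf4 at 11.8, Piezo1 at 11.4 and Edn1 at 5.0 CPM per kb. The Cav1 range over libraries (74.2 to 141) overlapped no other member's. The Thbd range (30.3 to 54.4) overlapped that of Klf2 (8.81 to 36.6) through Gata5-null replicate 3, where Klf2 stood above Thbd. Nos3 and Klf2 overlapped, as did Klf2 and Klf4, and Klf4 and Piezo1, so their order is not settled by these libraries. Piezo1 was above Edn1 in 12 of 12 libraries.

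Piezo1, the mechanically gated channel, was 87.5, 146, 94.3 and 112 CPM in wildtype replicates 1 to 4. It was 120, 106, 117 and 100 CPM in double-heterozygous and 117, 128, 144 and 92.5 CPM in Gata5-null libraries. The 3 groups overlapped, and wildtype spanned the others. Its log2 difference was 0.13 (SE 0.16, 95% interval -0.20 to 0.46) in Gata5-null against wildtype and 0.01 (SE 0.16) in double-heterozygous against wildtype. Without wildtype replicate 2 these were 0.31 and 0.18, and the first was 0.042 without Gata5-null replicate 3. Gata5-null against double-heterozygous was 0.12 (SE 0.16), and 0.024 without Gata5-null replicate 3. Piezo1 overlaps Ctu2 on the opposite strand, which stood at 9.02 CPM, so shared reads would be a small part of its level if strand was not used in counting. Among 17 mechanosensor genes (channels, junctional receptors and their G proteins), 0 passed in any comparison. Piezo2, a related stretch-activated channel, had a log2 difference of 0.41 (SE 0.16, adjusted p = 0.839) in Gata5-null against wildtype, and Plxnd1, a semaphorin receptor that senses shear, 0.42 (SE 0.20, adjusted p = 0.897). The list's median log2 difference was 0.01 there, beside -0.03 over all genes.

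Klf2, the transcription factor most closely tied to laminar flow, was 22.3, 41.1, 19.3 and 21.1 CPM in wildtype replicates 1 to 4. It was 38.9, 16.3, 25.7 and 31.6 CPM in double-heterozygous and 28.0, 26.0, 67.6 and 31.8 CPM in Gata5-null libraries. Wildtype replicate 2 and Gata5-null replicate 3 were the high values of their groups, and these are the 2 libraries with the most genes at 0. Wildtype replicate 2 also had the lowest cardiomyocyte marker sum, and the part of tissue make-up in the Klf2 values was not tested. The log2 difference of Gata5-null against wildtype was 0.56 (SE 0.33, 95% interval -0.14 to 1.26) and the groups overlapped. Without Gata5-null replicate 3 it was 0.15, without wildtype replicate 2 it was 0.89, and without both it was 0.46. Against double-heterozygous libraries it was 0.45 (SE 0.33) with all libraries and 0.03 without Gata5-null replicate 3. In double-heterozygous against wildtype it was 0.11 (SE 0.33), and 0.43 without wildtype replicate 2. With the number of genes at 0 in a library as a covariate, a setting added after seeing the data, Gata5-null against wildtype was 0.26 (SE 0.31) and Gata5-null against double-heterozygous was -0.17 (SE 0.39), of the opposite sign.

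Klf4, the companion factor that shares many targets with Klf2, was 29.8, 32.3, 39.8 and 48.9 CPM in wildtype replicates 1 to 4. Its levels were 40.2, 50.1, 22.9 and 41.9 CPM in double-heterozygous and 31.0, 38.5, 18.9 and 39.1 CPM in Gata5-null libraries. The groups overlapped, and the lowest value was that of Gata5-null replicate 3, where Klf2 was highest. The log2 difference was -0.24 (SE 0.25, 95% interval -0.75 to 0.27) in Gata5-null against wildtype and -0.05 without that library. Against double-heterozygous libraries it was -0.28 (SE 0.25), and -0.096 without that library. Double-heterozygous against wildtype was 0.04 (SE 0.25), and -0.027 without wildtype replicate 2. Of 15 tested KLF family genes, 0 passed in any comparison, and the median log2 difference was -0.05 in Gata5-null against wildtype. Klf9, a factor known for its response to glucocorticoids, had -0.18 (SE 0.16) there. The 13 genes of the cascade above the KLF factors, among them the MEF2 factors, also gave 0 calls, with a median of -0.09.

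**Figure D2:**
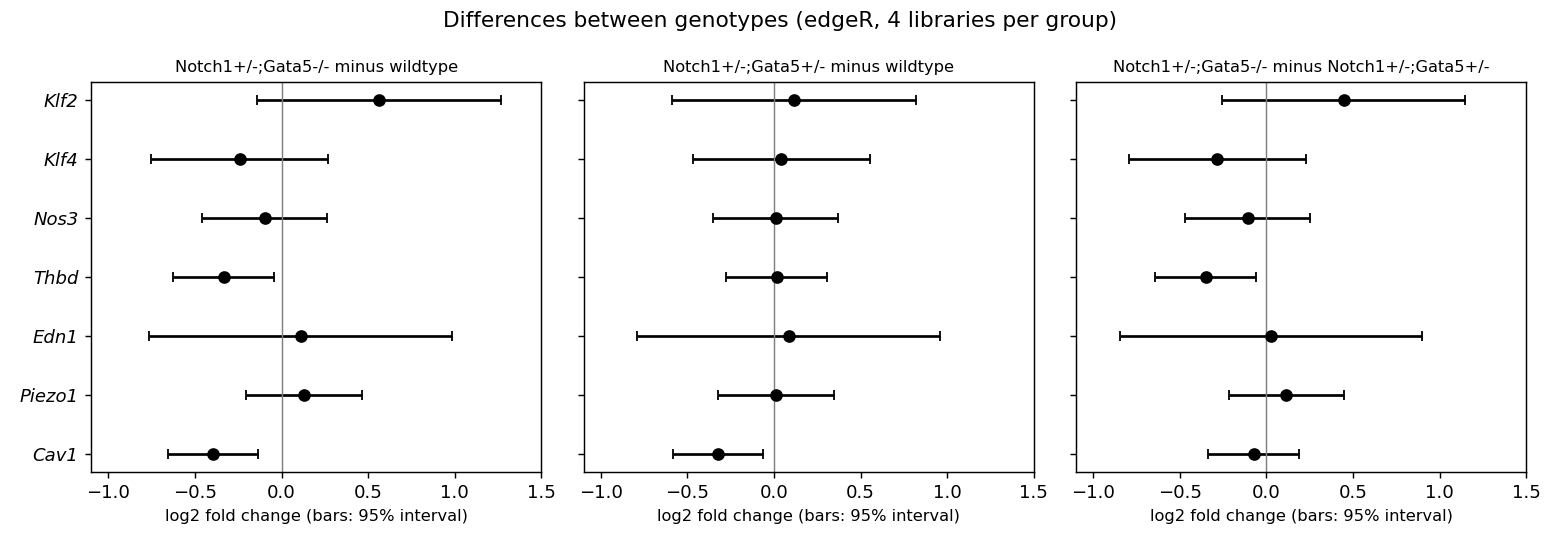
Log2 fold change of each of the 7 genes in the 3 comparisons, with the 95% interval of edgeR's estimate as bars, 4 libraries per group. The Cav1 interval lies below 0 in both comparisons with wildtype (-0.66 to -0.13 and -0.59 to -0.06), the Thbd interval does in both comparisons of Gata5-null libraries, and the Klf2 and Edn1 intervals are the widest.

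Nos3, the nitric oxide synthase of endothelium, was 61.8, 93.4, 59.0 and 78.5 CPM in wildtype replicates 1 to 4. It was 71.6, 83.6, 62.8 and 76.7 CPM in double-heterozygous and 59.2, 82.0, 79.2 and 53.3 CPM in Gata5-null libraries. The groups covered much the same range. The log2 difference was -0.10 (SE 0.18, 95% interval -0.46 to 0.26) in Gata5-null and 0.01 (SE 0.17, 95% interval -0.35 to 0.37) in double-heterozygous against wildtype, so a change of the size of those bounds cannot be told from none. Without wildtype replicate 2 these were 0.058 and 0.15, the first of opposite sign. Without Gata5-null replicate 3, Gata5-null against wildtype was -0.17, and against double-heterozygous it was -0.18, where all libraries gave -0.11 (SE 0.18). Nos3 overlaps Gm15587 (6.31 CPM) and Atg9b (2.21 CPM) on the opposite strand, both far below it. Of 19 tested genes of nitric oxide synthesis and its cyclic GMP response, 0 passed. The lowest p values in Gata5-null against wildtype were those of Gucy1a1 (-0.47, SE 0.15, adjusted p = 0.825 in edgeR) and Gucy1b1 (-0.43, SE 0.16, adjusted p = 0.839), the subunits of soluble guanylate cyclase, the nitric oxide receptor of smooth muscle. The list's median log2 difference was -0.14, beside -0.03 over all genes.

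Thbd, thrombomodulin, was 151, 202, 136 and 194 CPM in wildtype replicates 1 to 4. It was 186, 162, 167 and 176 CPM in double-heterozygous libraries and 142, 130, 113 and 156 CPM in Gata5-null libraries. Every Gata5-null library was below every double-heterozygous one, while wildtype overlapped both. Of all genes, 2.03% were lower without overlap in that comparison. The log2 difference was -0.35 (SE 0.14, 95% interval -0.64 to -0.06), with an adjusted p = 1 in edgeR's test over all genes. The unadjusted exact permutation p = 0.0286 is the smallest that 4 against 4 can give and only restates the lack of overlap. Against wildtype the log2 difference was -0.33 (SE 0.14, 95% interval -0.63 to -0.04, adjusted p = 0.860 in edgeR). The unadjusted exact permutation p there was 0.143. Double-heterozygous against wildtype was 0.02 (SE 0.14), and 0.11 without wildtype replicate 2. Of 12 tested genes of thrombomodulin and coagulation control, 0 passed, and of 17 tested targets of KLF2 and KLF4, 0 passed. Adamts5, an aggrecan-cleaving protease in the target list, had a log2 difference of -0.31 (SE 0.15, adjusted p = 0.909) in Gata5-null against wildtype. The medians of these lists were -0.14 and -0.09, beside -0.03 over all genes.

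Edn1, the endothelin precursor and the member with the fewest counts, was 9.72, 8.45, 9.83 and 12.9 CPM in wildtype replicates 1 to 4. It was 11.1, 13.4, 8.21 and 10.7 CPM in double-heterozygous and 17.1, 13.1, 2.27 and 11.6 CPM in Gata5-null libraries. The value of 2.27 CPM rests on 33 counts in Gata5-null replicate 3, against 163 to 365 counts in the other libraries. The log2 difference of Gata5-null against wildtype was 0.11 (SE 0.42, 95% interval -0.76 to 0.98), and without that library it was 0.46. It was 0.039 without wildtype replicate 2. Against double-heterozygous libraries it was 0.03 (SE 0.42), and 0.37 without Gata5-null replicate 3. Double-heterozygous against wildtype was 0.08 (SE 0.42), and 0.0011 without wildtype replicate 2. The interval is wide enough to hold a marked difference either way. Of 6 tested endothelin pathway genes, 0 passed, with Ednrb, an endothelin receptor of endothelium, at 0.40 (SE 0.25) and Ednra, the receptor of smooth muscle, at -0.22 (SE 0.20) in Gata5-null against wildtype.

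Cav1, caveolin-1, was 368, 404, 409 and 485 CPM in wildtype replicates 1 to 4. It was 307, 332, 336 and 356 CPM in double-heterozygous libraries and 255, 296, 342 and 372 CPM in Gata5-null libraries. Every double-heterozygous library was below every wildtype one, and Gata5-null replicate 4 was the one mutant library above the lowest wildtype value. Of all genes, 0.915% were lower without overlap in double-heterozygous against wildtype. There the log2 difference was -0.32 (SE 0.13, 95% interval -0.59 to -0.06), with an adjusted p that rounds to 1 in edgeR's test. The unadjusted exact permutation p = 0.0286 only restates the lack of overlap. In Gata5-null against wildtype the log2 difference was -0.40 (SE 0.13, 95% interval -0.66 to -0.13, adjusted p = 0.772 in edgeR), which ranked 114 by p among all genes tested. The unadjusted exact permutation p for that comparison was 0.0571. The mutant groups differed from each other by -0.07 (SE 0.13, 95% interval -0.33 to 0.19). The authors' deposited table, whose fold changes match Gata5-null against wildtype, gives Cav1 a log2 fold change of -0.37 with an adjusted p of 0.282. It marks none of the 7 genes as significant. Its name carries a fold change limit, which the calls made here do not use, and a looser adjusted p limit.

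Smooth muscle markers were lower where Cav1 was lower in both comparisons with wildtype, while between the mutant groups their median was lower and Cav1 stayed within its error. The 10 markers, all with counts, summed to 5556 to 7454 CPM in wildtype, 5006 to 5758 in double-heterozygous and 3832 to 5177 in Gata5-null libraries, and 3 of 10 fell in Gata5-null against wildtype. These were Mylk (-0.75, SE 0.12, adjusted p = 0.00861), Myh11 (-0.75, SE 0.12, adjusted p = 0.0136) and Cnn1 (-0.81, SE 0.15, adjusted p = 0.0365 in edgeR), all of the contractile apparatus. None passed in the other comparisons. The list's median log2 difference was -0.61 in Gata5-null against wildtype, -0.28 in double-heterozygous against wildtype and -0.34 in Gata5-null against double-heterozygous, where Cav1 had -0.07. With the mean log2 CPM of the smooth muscle list as a covariate, a setting added after seeing the data, the Cav1 difference was -0.02 (SE 0.21) in Gata5-null and -0.18 (SE 0.13) in double-heterozygous against wildtype, and 0.17 (SE 0.16) in Gata5-null against double-heterozygous. With the endothelial and smooth muscle scores together, also added after seeing the data, it was -0.14 (SE 0.24) and -0.23 (SE 0.13), and with the endothelial score alone -0.46 (SE 0.12) and -0.35 (SE 0.12). The same smooth muscle covariate gave Thbd a difference of 0.10 (SE 0.25) in Gata5-null against wildtype, and -0.09 (SE 0.18) against double-heterozygous. The smooth muscle score itself differs between the genotypes, so that these fits share out one difference between score and genotype. In pools of whole valves, fewer cells of a type and less RNA per cell cannot be told apart.

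**Figure D3:**
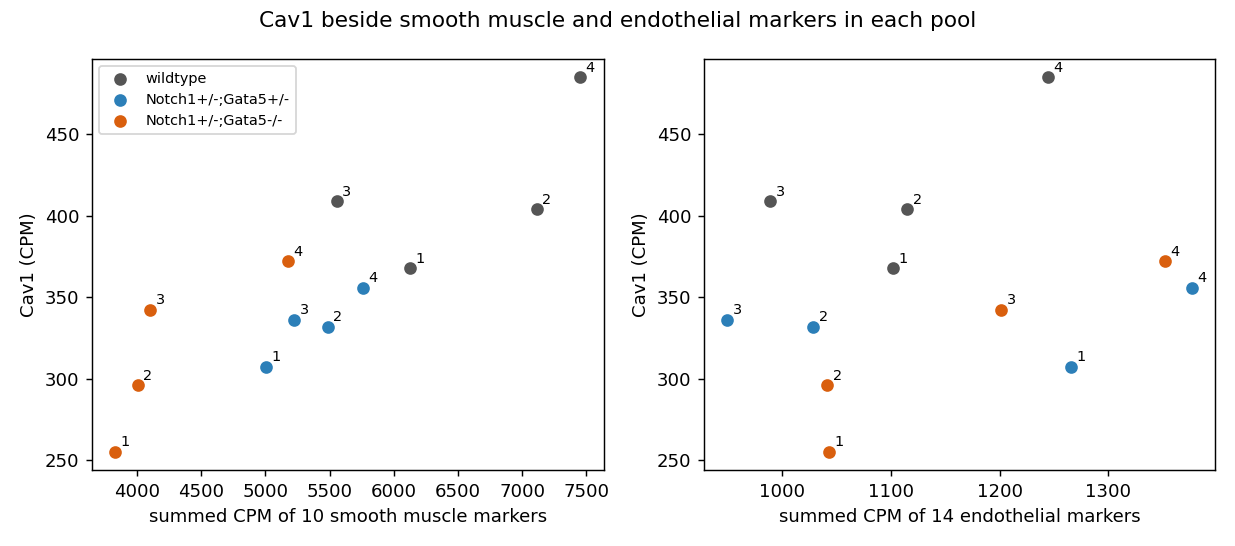
Cav1 in CPM in each pool against the summed CPM of smooth muscle markers and of endothelial markers, coloured by genotype. Wildtype pools lie at 5556 to 7454 CPM of smooth muscle markers and 368 to 485 CPM of Cav1, Gata5-null pools at 3832 to 5177 and 255 to 372, while endothelial sums overlap between the genotypes.

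Of 10 tested caveola genes, 0 passed. Cavin1, which builds the caveolar coat with Cav1, had a log2 difference of -0.25 (SE 0.13) in Gata5-null against wildtype. Of the 10 differences there, 7 were negative and 3 positive. Cavin2 went the other way, at 152 ± 35.4 CPM in wildtype and 185 ± 30.8 CPM in Gata5-null libraries (SD, n = 4 each). The list's median was -0.23, beside -0.03 over all genes. In double-heterozygous against wildtype that median was -0.02. Among 7 target genes of the force-responsive coactivators YAP and TAZ, 0 passed, and Ccn1, a matricellular target, had 0.48 (SE 0.17, adjusted p = 0.839) in Gata5-null and 0.53 (SE 0.17) in double-heterozygous against wildtype. Fos, an immediate early gene that answers to tissue handling among other stimuli, had 1.38 (SE 0.49, adjusted p = 0.839) and 1.35 (SE 0.49) in the same comparisons. The 17 immediate early genes summed to 348 to 452 CPM in wildtype, 411 to 454 in double-heterozygous and 404 to 474 in Gata5-null libraries, and their part in the Ccn1 values was not tested. Of these 17, 7 and 6 had a negative log2 difference in the same comparisons, and the list's medians were 0.13 and 0.10. Of 7 inflammatory endothelial genes, 0 passed, with the chemokine Cxcl12 at -0.27 (SE 0.14) and Vcam1, a leukocyte adhesion molecule, at 0.32 (SE 0.22) in Gata5-null against wildtype. Over all 119 distinct pathway genes tested, edgeR, DESeq2 and limma-voom each called 0 in every comparison, and 8, 2 and 1 had an unadjusted p under 0.05 in Gata5-null against wildtype, double-heterozygous against wildtype and Gata5-null against double-heterozygous. These are 6.72%, 1.68% and 0.84% of the 119, beside 5.4%, 1.25% and 3.18% of all genes tested. The pathway lists, and so their medians, include members. Cav1 and Thbd are among the 8, Cav1 is 1 of the 2, and Thbd is the 1, so these counts partly repeat the member results.

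Set against the endothelial RNA of the same pool, Cav1 and Thbd were the 2 members whose Gata5-null libraries all lay below wildtype. On the scale of log2 CPM minus the mean log2 CPM of 14 endothelial markers, Cav1 was 2.75 to 2.99 in wildtype, 2.30 to 2.77 in double-heterozygous and 2.19 to 2.55 in Gata5-null libraries. Gata5-null did not overlap wildtype, as was so for 3.63% of all genes lower on this scale. Thbd was 1.396 to 1.962 in wildtype, 1.43 to 1.76 in double-heterozygous and 0.95 to 1.35 in Gata5-null libraries. On this scale Gata5-null libraries lay below both other groups, while in CPM they overlapped wildtype, against 2.2% of genes lower without overlap in Gata5-null against double-heterozygous. The endothelial markers that are subtracted had a median log2 difference of 0.20 in Gata5-null against wildtype, with 11 of 14 positive, 0 past the test and 1 at an unadjusted p under 0.05, and their part in the separation from wildtype was not tested. Klf2, Klf4, Nos3, Edn1 and Piezo1 overlapped between all groups on this scale.

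**Figure D4:**
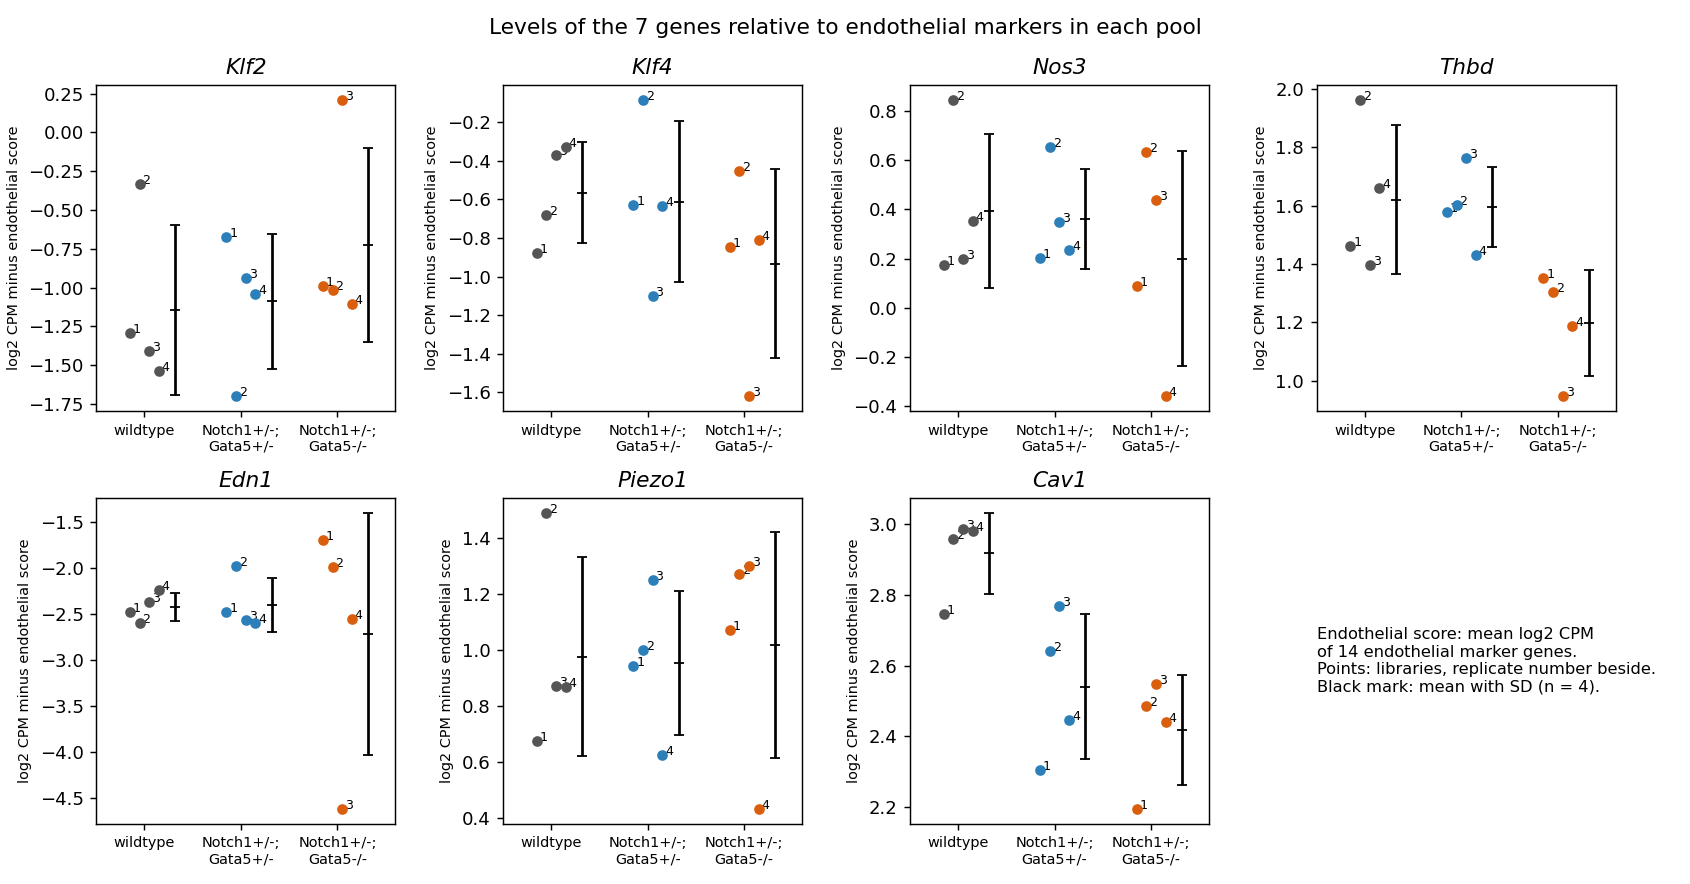
Log2 CPM of each of the 7 genes minus the mean log2 CPM of 14 endothelial markers, per pool and genotype, with the mean and SD of 4. Thbd in Gata5-null pools (0.95 to 1.35) lies below the wildtype (1.396 to 1.962) and double-heterozygous (1.43 to 1.76) pools, and the other genes except Cav1 overlap between all groups.

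From pool to pool, none of the 21 pairs of members passed an adjusted p of 0.05 over the 12 libraries. On values centred within genotype 3 did, but that test shuffled values across all libraries without allowing for the centring. Its p values are therefore too small, and these 3 are not read as passing. The closest pair was Klf4 with Edn1 (Pearson r = 0.74, permutation p = 0.00603, adjusted p = 0.127, Spearman rho = 0.58, permutation p = 0.0507), and r was 0.20 without the 2 libraries farthest from the Klf4 median. Klf2 with Edn1 had r = -0.71 (permutation p = 0.0196, adjusted p = 0.140, Spearman rho = -0.38, permutation p = 0.228), and -0.12 without the 2 libraries farthest from the Klf2 median. Centred within genotype, r was 0.74 (permutation p = 0.00272, adjusted p = 0.0304) for Klf4 with Edn1 and -0.73 (permutation p = 0.00369, adjusted p = 0.0304) for Klf2 with Edn1. Without Gata5-null replicate 3 the uncentred r of these pairs was weaker, at 0.46 and -0.25, and the centred r without that library was not computed. Nos3 with Piezo1 had r = 0.66 (permutation p = 0.021, adjusted p = 0.140, Spearman rho = 0.66, permutation p = 0.0249), 0.66 without Gata5-null replicate 3 and 0.44 without the 2 libraries farthest from the Nos3 median. Centred within genotype its r was 0.76 (permutation p = 0.00435, adjusted p = 0.0304). Klf2 with Nos3, a factor and its known target, had r = 0.22 (permutation p = 0.505, adjusted p = 0.708, Spearman rho = 0.13, permutation p = 0.684), and 0.37 without 2 libraries. Klf2 with Thbd had r = -0.18 (permutation p = 0.58, adjusted p = 0.708, Spearman rho = 0.06, permutation p = 0.851), and 0.52 without 2 libraries.

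**Figure D5:**
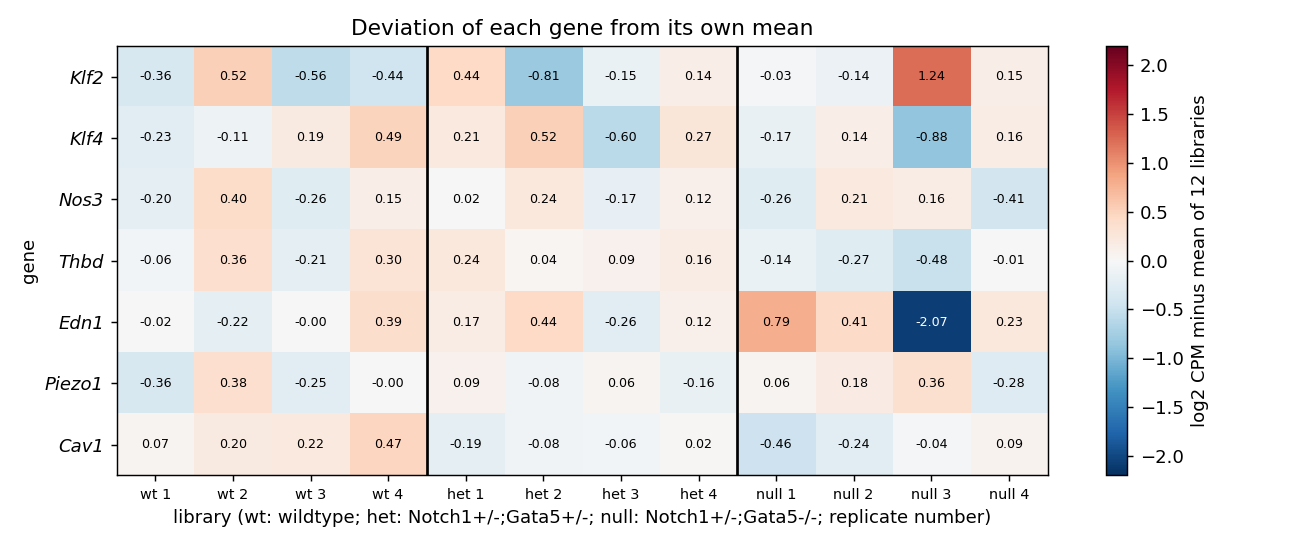
Log2 CPM of each of the 7 genes in each library minus the gene's mean over 12 libraries, as a colour scale. Gata5-null replicate 3 has the highest Klf2 (67.6 CPM) and the lowest Klf4 (18.9 CPM), Thbd (113 CPM) and Edn1 (2.27 CPM) of all libraries.

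The genes most like each member were taken as those with the highest Pearson r of log2 CPM over the 12 libraries, among 12052 genes. They are a description, since libraries share depth and quality. Klf2 was nearest to Nkd1 (r = 0.90), Uxs1 (0.88) and Kdelr2 (0.87), and Klf4 to Krtcap2 (0.93), Btf3 (0.93) and Pak3 (0.89). Without Gata5-null replicate 3 these were 0.82, 0.82 and 0.74 for Klf2, and 0.90, 0.89 and 0.79 for Klf4. Nos3 was nearest to Kalrn (0.84), Phc1 (0.84) and Stil (0.83), and Thbd to Trp53rka (0.93), Kcnj15 (0.93) and Arhgef3 (0.92). Edn1 lay nearest to Adrm1 (0.97), Gbp3 (0.97) and Asic1 (0.96), which became 0.81, 0.80 and 0.76 without Gata5-null replicate 3. Piezo1 lay nearest to Fgfr3 (0.94), Vps35l (0.91) and Ltbp2 (0.91), and Cav1 to Map1b (0.92), Itih4 (0.92) and Igsf9b (0.91). None of the 7 members was among the 3 nearest genes of another.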

How the data were processed

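RNA was measured by poly-A sequencing in 12 mouse aortic valve libraries, 4 per genotype. Per the submitters' processing notes, Trim Galore, STAR 2.7.10b, GRCm39 and DESeq2 1.34.0 were used. Counting tool, annotation release and strand setting: not given in the sources used here. Of strand, the protocols name directional and non-directional libraries. The authors deposited raw counts of 20620 genes, and a table with a mean normalized signal, log2 fold change, standard error and Wald statistic (scores), p-value and adjusted p-value for 13959 genes. That table names no comparison, and its log2 fold changes matched a DESeq2 refit of Gata5-null against wildtype.

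Here counts were filtered by filterByExpr, scaled by TMM and fitted with edgeR 4.0.16 (R 4.3.3) by robust quasi-likelihood, with 1 coefficient for each genotype over all 12 libraries. Intervals of 95% use the fit's degrees of freedom. For single genes an exact permutation test (two-sided) was run too, and relations were tested by a two-sided permutation test with 100000 resamples, adjusted by Benjamini-Hochberg over 21 pairs. Symbols absent from the authors' table, exon lengths and overlaps came from GENCODE M21. The model was also run on simulated counts with the same dispersion for every gene, set below the common dispersion of these libraries. That run does not show how the model does on data as variable as these. Alternatives were DESeq2 1.42.0, limma-voom (limma 3.58.1), RLE size factors, no filter, the 8 libraries compared, a replicate block, covariates and libraries left out.

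The 7 genes and the lists were chosen with earlier results of these data known. Named were the 7 genes, pathway list members with the smallest p (up to 2 per list and comparison), the 3 genes most like each member, Gata5 and Notch1, and the called smooth muscle markers. Fos was named after its values were seen. The limit of 3 counts for a count of 0 covers counting error only.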

Additional observations from a re-analysis of the deposited data

Results flagged for a closer look

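Klf2 in 2 libraries lay far from the other 3 of its genotype, by Dixon's test on CPM at the 95% level. In wildtype replicate 2 it was 41.1 CPM, against 19.3 to 22.3 CPM in the other wildtype libraries. In Gata5-null replicate 3 it was 67.6 CPM, against 26.0 to 31.8 CPM in the other Gata5-null libraries. These were 2 of 21 groups of 4 values examined, and chance gives about 1 in 20.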

How the results depend on the processing

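Each of the 21 member differences was recomputed under 23 settings, 483 values in all. None passed an adjusted p of 0.05, 424 kept their sign and 59 had the opposite sign. Covariates other than the endothelial score alone were chosen after seeing the data. Log2 differences of opposite sign follow, with Gata5-null against wildtype as the first comparison, double-heterozygous against wildtype as the second and Gata5-null against double-heterozygous as the third. With the smooth muscle score they were, in the first, Klf2 -0.13, Klf4 0.46, Thbd 0.10 and Piezo1 -0.18, in the second, Klf2 -0.15, Nos3 -0.018 and Piezo1 -0.10, and in the third, Klf4 0.14, Piezo1 -0.080 and Cav1 0.17. With both scores they were, in the first, Klf2 -0.63, Klf4 0.30, Thbd 0.014 and Piezo1 -0.037, in the second, Klf2 -0.40 and Piezo1 -0.038, and in the third, Klf2 -0.23, Klf4 0.066 and Cav1 0.095. With the number of genes at 0 they were, in the first, Piezo1 -0.038, in the second, Klf4 -0.059, Thbd -0.015 and Edn1 -0.19, and in the third, Klf2 -0.17 and Piezo1 -0.22. With the endothelial score they were Klf4 -0.017 and Thbd -0.015 in the second. With limma-voom, Edn1 was -0.020 in the first and -0.10 in the third. With RLE size factors and DESeq2, Nos3 in the second was -0.00038 and -0.00037. Without wildtype replicate 2 and Gata5-null replicate 3 together, Klf4 in the second was -0.027. The cause was not tested.

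With the replicate number as a block, Edn1 was -0.086 in the first and -0.12 in the third, and Klf4 was -0.011 in the second; Cav1 in the first was -0.40 with an adjusted p of 0.333 in edgeR, and no call was gained. Same-numbered libraries correlated in their deviations over all genes at -0.0331 to 0.0951. Cav1, however, rose with the replicate number within every genotype. Whether the numbers mark a pairing or a shared batch is thus not known.

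In Gata5-null against wildtype, leaving out each of the 12 libraries in turn gave 0.15 to 0.89 for Klf2, -0.36 to -0.051 for Klf4, -0.20 to 0.058 for Nos3, -0.43 to -0.23 for Thbd, -0.17 to 0.46 for Edn1, 0.033 to 0.31 for Piezo1 and -0.48 to -0.29 for Cav1. In double-heterozygous against wildtype, leaving out each of the 12 libraries in turn gave -0.082 to 0.43 for Klf2, -0.10 to 0.23 for Klf4, -0.078 to 0.15 for Nos3, -0.078 to 0.11 for Thbd, -0.032 to 0.22 for Edn1, -0.080 to 0.18 for Piezo1 and -0.38 to -0.24 for Cav1. In Gata5-null against double-heterozygous, leaving out each of the 12 libraries in turn gave 0.030 to 0.67 for Klf2, -0.47 to -0.10 for Klf4, -0.21 to -0.0077 for Nos3, -0.43 to -0.27 for Thbd, -0.26 to 0.37 for Edn1, 0.024 to 0.22 for Piezo1 and -0.16 to 0.033 for Cav1. Klf2 in the first comparison was lowest without Gata5-null replicate 3 and highest without wildtype replicate 2.

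The relations that passed an adjusted permutation p of 0.05 numbered 0 over 12 libraries, 3 on values centred within genotype (Klf2 with Edn1, Klf4 with Edn1, Nos3 with Piezo1, each adjusted p = 0.0304) and 0 without the 2 farthest libraries. The p values on centred values are too small, since the shuffling did not allow for the centring. Signs of r turned for Klf2 with Thbd (0.13 centred, 0.52 without 2 libraries), Klf2 with Cav1 (0.15 centred), Thbd with Edn1 (-0.17 without 2 libraries) and Thbd with Piezo1 (0.20 centred, 0.090 without 2 libraries).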
